A study of Gallus gallus with 6 samples.

Results

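The comparison described here set RNA of chicken macrophages kept with whole E. coli for 2 h against RNA of the same kind of cells at 4 h, on 1 spotted cDNA array. All named genes that could be read were taken, which gave 2252 genes of the 2253 named on the platform, from 1 array of the 6 in the series. The cells were macrophages derived from peripheral blood of chickens, which the labels call avian peripheral blood lymphocyte macrophages. Both RNA samples came from cells given whole bacteria of the XL10 laboratory strain, with no unstimulated sample on the array. Per the labels the bacteria were removed from late time points once 2 h had passed, so the RNA of E. coli 4 h includes a period without them. For breed, age, pooling of birds and the ratio of bacteria to cells, nothing is given in the sources used here.

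Each clone was spotted 3 times, and 13914 of 14718 spots had a value. The 1 array has no replicate, so no test was possible, and every ± below is an SD among the spots of a gene, which holds technical spread only. Ratios are log2 values, with base 2 assumed, minus the array's median of 0.49. The title and the channel order of the labels both name E. coli 2 h before E. coli 4 h, which makes a ratio of 2 h over 4 h likely, though the numerator is not stated. A negative value would then mean more RNA at 4 h and a positive value more RNA at 2 h. On the 1 h arrays CCL20, a chemokine that draws CCR6-bearing lymphocytes, had 6.0 ± 2.41 where the stimulated RNA was in channel 1 and -6.46 where it was in channel 2. Titles alone do not settle which RNA is in which channel, since one 1 h title puts the unstimulated control ahead of E. coli although the labels put the control in its channel 2. Signs are given as deposited throughout, and if this array ran the other way every sign below would turn.

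Macrophages meet Gram-negative bacteria through toll-like receptors, which signal through MYD88 and the NF-kB kinases to NF-kB factors in the nucleus. The early targets include chemokines that call in heterophils, monocytes and T cells, and inhibitors such as TNFAIP3 and NFKBIA that switch the same pathway off. Later steps include changes in antigen presentation, phagosome maturation, redox defence and metabolism. Since an array of RNA from a whole culture was used, fewer cells of a type and less RNA per cell cannot be told apart.

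Of the 2252 genes, 520 (23.1%) lay past 2-fold, meaning a log2 ratio of at least 1 in size. The positive side held 333 of them (14.8%) and the negative side 187 (8.3%). The median of all genes was 0.04, and the middle 90% of genes lay between -1.25 and 1.69. The centring sets this split, since with no centring 646 genes were positive and 70 negative, and the median of all genes was 0.54. Values below that lie between -0.49 and 0 would then be positive, and negative genes less than 0.49 past the threshold would be within 2-fold. At the threshold, the nearest genes had 0.999585 within and 1.00089 past it on the positive side, and -0.999646 within and -1.00118 past it on the negative side.

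The sides differed in brightness and in the spread of their spots. Brightness was taken from the intensity of each gene on the LPS 2 h array, and the lowest 25% of genes are called dim. Of the positive genes 175 were dim (52.6%), against 44 (23.5%) of the negative ones. The median SD over spots was 1.03 for the positive genes and 0.41 for the negative genes. With genes cut into 4 equal bins of brightness, from dim to bright, the median ratio was 0.55, 0.11, -0.01 and -0.28, so that the ratio itself moved with brightness. In the brightest bin 74 genes were negative and 23 positive, while in the dimmest 44 were negative and 175 positive. With the trend removed by a lowess curve, 244 genes were positive and 206 negative. Of the 520 genes, 361 kept their sign and their place past 2-fold.

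**Figure D1:**
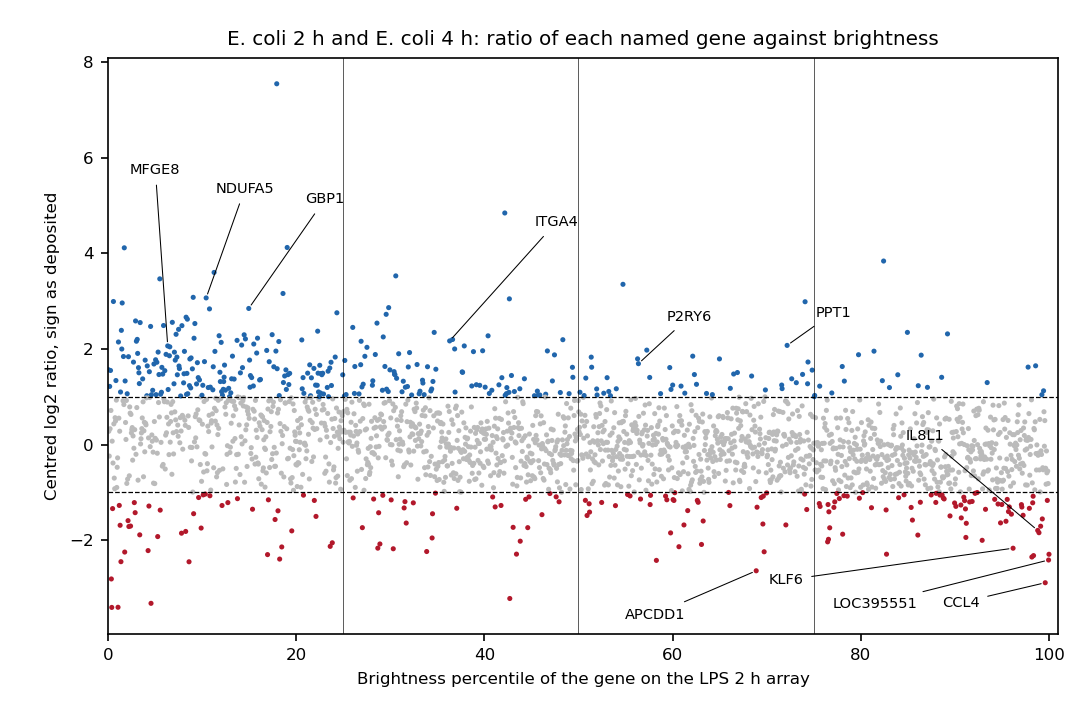
Centred log2 ratio of each of 2252 named genes (vertical axis) against its brightness percentile on the LPS 2 h array (horizontal axis). Red points are at least 2-fold negative, blue points at least 2-fold positive, dashed lines mark 2-fold and thin vertical lines the bins of brightness. Most blue points lie on the left, with 175 of 333 in the dimmest bin, while CCL4, LOC395551, IL8L1 and KLF6 lie at the bright end on the negative side.

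Among genes with at least 3 spots read, every spot lay past 2-fold for 57 negative and 56 positive genes. Genes with fewer spots were not counted here, even where all of their spots lay past it. Of the 57 negative genes 56 were not dim, and the median SD of the 57 was 0.16. Of the 56 positive genes 22 were not dim, and the median SD was 0.56. A group of clones also stood apart by place: in the last 32 positions of each run of 640 identifiers, 106 clones had a median of -0.79, against 0.07 for the other 4791 clones. At least 2-fold negative there were 42 clones (39.6%), against 9.43% elsewhere, and clones without a gene name in that stretch had a median of -0.77. On the other ratio arrays the same clones had medians of -0.48 (E. coli 1 h), 0.04 (LPS 1 h), 0.48 (4 h) and 0.26 (8 h). All clones of 76 genes fall in this stretch, and 32 of these were negative, 17.1% of all negative genes. Of the 76 genes 46 were dim (60.5%). With these clones left out 155 genes were negative, and with the stretch centred on its own median 180. The place of such genes is named below, and its part in their ratios was tested no further. Place was not told apart from which genes lie there.

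**Figure D2:**
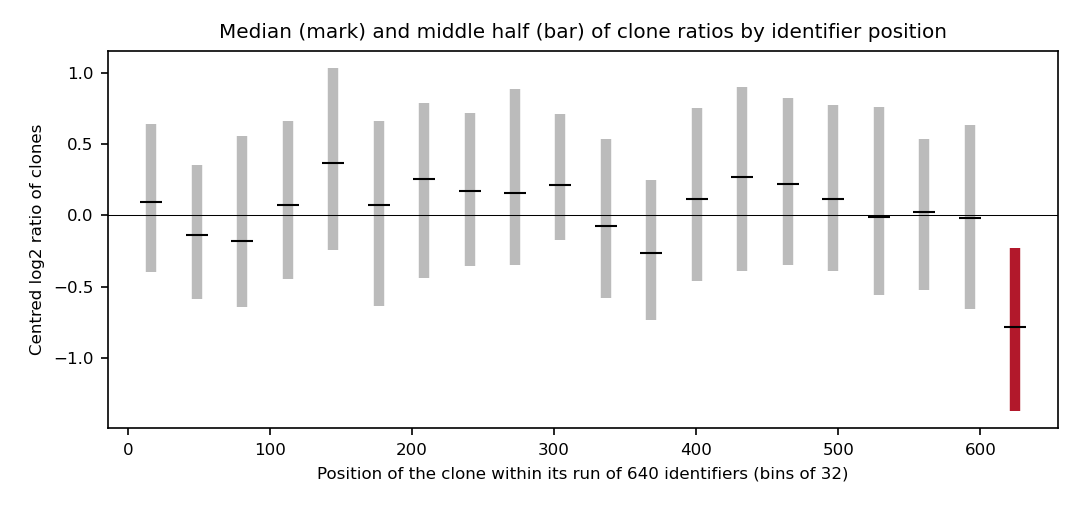
Median (black mark) and middle 50% (bar) of the centred log2 ratios of clones, in bins of 32 positions within a run of 640 identifiers (horizontal axis), over the 8 runs of each set of spots. The last bin, in red, has a median of -0.79, below all other bins.

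Markers of cell types were looked up, with brightness taken from the LPS 2 h array and so from RNA other than that compared here. Of 47 macrophage markers written down, 21 were on the array, with a median brightness percentile of 85.1, and 3 of them were dim. CSF1R, the receptor for the macrophage growth factor CSF1, had a brightness percentile of 92.2, and CTSB, a lysosomal protease, 93.8. Medians of the other cell lists were lower, at 83.9 for dendritic cell and 78.6 for thrombocyte markers. Those of T cell and erythroid markers were 48.6 and 35.0. The T cell marker CD3D had a higher percentile than CSF1R and CTSB, so brightness alone does not single out macrophages. Brightness depends on the clone as well as on the RNA, so these percentiles describe spots and are no levels. Of 25 T cell markers 5 were read, 2 of them dim, with ratios between -2.13 and 0.13. Only 2 B cell markers, 6 thrombocyte, 4 erythroid and 6 heterophil markers were read, which leaves those cells poorly covered. Thrombocyte markers had a median of -0.40 and ran from PDGFB, a growth factor of thrombocyte granules, at -1.2 ± 0.35 to SELP, P-selectin, at 0.76 ± 0.82. Among erythroid markers CA2, carbonic anhydrase, had -1.32 ± 0.37, while HBA1 and HBBA, globins, had 0.50 and 0.12 and RHAG 0.93. In the thrombocyte and erythroid lists PDGFB and CA2 alone lay past 2-fold. The part of such cells in the ratios was not tested.

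Chemokines lay farthest to the negative side of all 32 gene lists with at least 3 genes read. Of 8 chemokines 4 were negative (50%) and 0 positive, and their median was -1.29, against 0.04 over all genes. The list is bright, with a median brightness percentile of 98.5, and the brightest bin of all genes had a median of -0.28 and 13.1% negative. For this and every list below, the shares over all genes were 8.3% negative and 14.8% positive. CCL4, a chemokine for monocytes and T cells, had the largest negative ratio of all genes with at least 3 spots of 1 sign. Its spots gave -3.18, -2.56 and -2.93, a mean of -2.89 ± 0.31 or 7.41-fold. LOC395551, which RefSeq also lists under the synonym MIP-1beta, gave -2.54, -2.46 and -2.25, with a mean of -2.41 ± 0.15. CCL5, which attracts T cells and monocytes, gave -2.59, -2.31 and -2.16. All 9 of these spots lay past 4-fold. On chromosome 19 of the RefSeq assembly GRCg7b LOC395551, CCL4 and CCL5 are 3 protein-coding genes in a row. CCL1, another chemokine of chromosome 19 but 94 genes away from LOC395551, had -0.02, 0.83 and -0.66, a mean of 0.05 ± 0.74. Close relatives such as CCL4 and LOC395551 can cross-hybridise on cDNA clones, so their separate values are uncertain.

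IL8L1, a chicken interleukin 8 that attracts heterophils, was spotted as 2 clones, with -1.63 ± 0.11 and -1.96 ± 0.13. Both clones lay past 2-fold at every spot. CCL20 gave -0.43, -0.71 and -0.51, which is within 2-fold. XCL1, a T cell chemokine, had -0.78 ± 0.99 over 2 spots and is dim and in the end stretch, and CXCL13L2 had 0.22 at 1 spot. With the end stretch left out the chemokine median was -1.80, and with no centring it was -0.80. CCL4, CCL5, LOC395551 and IL8L1 remained at least 2-fold negative with no centring, at -2.40, -1.86, -1.92 and -1.30.

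Other cytokines had smaller ratios. Of 13 cytokines and growth factors 2 were negative and 1 positive, with a median of -0.56. Means of 10 of the 13 lay below 0, and 5 had all spots below 0. The list median was -0.06 with no centring, -0.26 with the trend removed and -0.31 with the end stretch left out. IL1B, the main proinflammatory interleukin 1, had -0.84 and -0.82 in its 2 clones, and IL6, a cytokine of the acute phase, had -0.43, -0.37 and -0.13. IL18, which drives interferon gamma production, had -0.34, -0.34 and -1.53. None of these passed 2-fold. Their spots were all below 0, although the mean of IL6 was 0.18 with no centring and 0.08 with the trend removed. The negative genes were IL15, a growth factor of lymphocytes, with 1.51, -1.57 and -5.05, and TGFB3, a transforming growth factor, with -2.01, -0.79 and -0.58. IL15 and TGFB3 are both dim and in the end stretch, and the spots of IL15 did not share a sign. PDGFA, a growth factor for mesenchymal cells, was on the positive side with 1.06, 1.67 and 1.48, each past 2-fold.

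Cytokine and chemokine receptors had a median of 0.14, with 1 positive and 2 negative genes of 24. IL21R, at -1.37, is dim and in the end stretch, and ATVR1, with -1.23 and -1.07 at 2 spots, is in that stretch as well. IFNGR1, the ligand-binding chain of the interferon gamma receptor, had 1.16 ± 2.31, and its brightest clone had -0.40, so that its sign depends on the clone, and 1 of its 2 clones is in the end stretch. CCR8, a chemokine receptor, lay just inside the threshold with 0.74, 1.20 and 1.01.

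In the NF-kB pathway 13 of 17 genes were below 0, with 3 negative and 0 positive. The list median of -0.30 was 0.19 with no centring and -0.20 with the trend removed. Its median brightness percentile was 80.6, and the brightest bin of all genes had a median of -0.28. TNFAIP3, the ubiquitin-editing enzyme A20 that shuts off signalling to NF-kB, had -1.48 ± 0.13 and -1.32 ± 0.23 in its 2 clones. NFKBIA, the inhibitor IkB alpha, gave -0.98, -0.72 and -0.67. NFKBIE, a related inhibitor, gave -0.20, -0.09 and -0.53, and NFKBIZ, an atypical nuclear member, had -0.50 and -0.11 in its 2 clones. These inhibitors had negative means, of which NFKBIE turned to 0.22 and NFKBIZ to 0.19 with no centring, and NFKBIZ to 0.07 with the trend removed. TNFAIP3 alone among them lay past 2-fold, and it had -0.91 with no centring and -1.01 with the trend removed. BIRC2, a ubiquitin ligase of TNF receptor signalling, had 4 clones between -0.62 and -0.45. IKBKB, a kinase that marks IkB for destruction, gave -2.49, -2.31 and -2.08, and TRAF1, an adaptor, gave -2.78 and -0.93. Both are among the 7 of 17 genes of the list in the end stretch, and with that stretch centred on its own median IKBKB had -1.46 and TRAF1 -1.02. TNIP3, a partner of TNFAIP3, had a positive mean from 0.23 and 3.51, which differ by more than its size.

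Of 13 genes of toll-like receptors and their signalling 2 were positive and 1 negative. TLR2A, a receptor for bacterial lipoproteins, had 0.74 and 1.30 at 2 spots. MYD88, the adaptor shared by most toll-like receptors, had 0.59, 2.51 and 0.79 and is dim. TLR15, a receptor known from birds and reptiles, had 0.75 and 0.36 in its 2 clones, and TLR1B rested on 1 dim spot at -2.81. All read spots of TLR2A, MYD88 and TLR15 were above 0. Over the list 9 genes had means above 0 and 4 below, IRAK2 at -0.30 and TLR5 at -0.21 among them.

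Among 15 immediate early genes 4 were negative and 0 positive, and all 4 had every spot past 2-fold. KLF6, a zinc finger factor of injury responses, stood out with 3 clones at -2.47 ± 0.14, -2.24 ± 0.08 and -1.79 ± 0.17. KLF2, a related factor that restrains macrophage activation in mammals, gave -1.57, -1.39 and -1.26. ATF4, the transcription factor of the integrated stress response, gave -1.48, -1.03 and -1.01. NFIL3, a basic leucine zipper repressor, gave -1.43, -1.11 and -1.09 and is in the end stretch. Classical members behaved otherwise: FOS had -0.47, 1.12 and 1.47, JUN had clones between -1.11 and 0.20, and DUSP1, a MAP kinase phosphatase, had -0.16, -0.13 and 0.59. The list median was -0.21, and 0.29 with no centring, where KLF6 kept its place at -1.67 and KLF2, NFIL3 and ATF4 were within 2-fold at -0.91, -0.72 and -0.68.

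**Figure D3:**
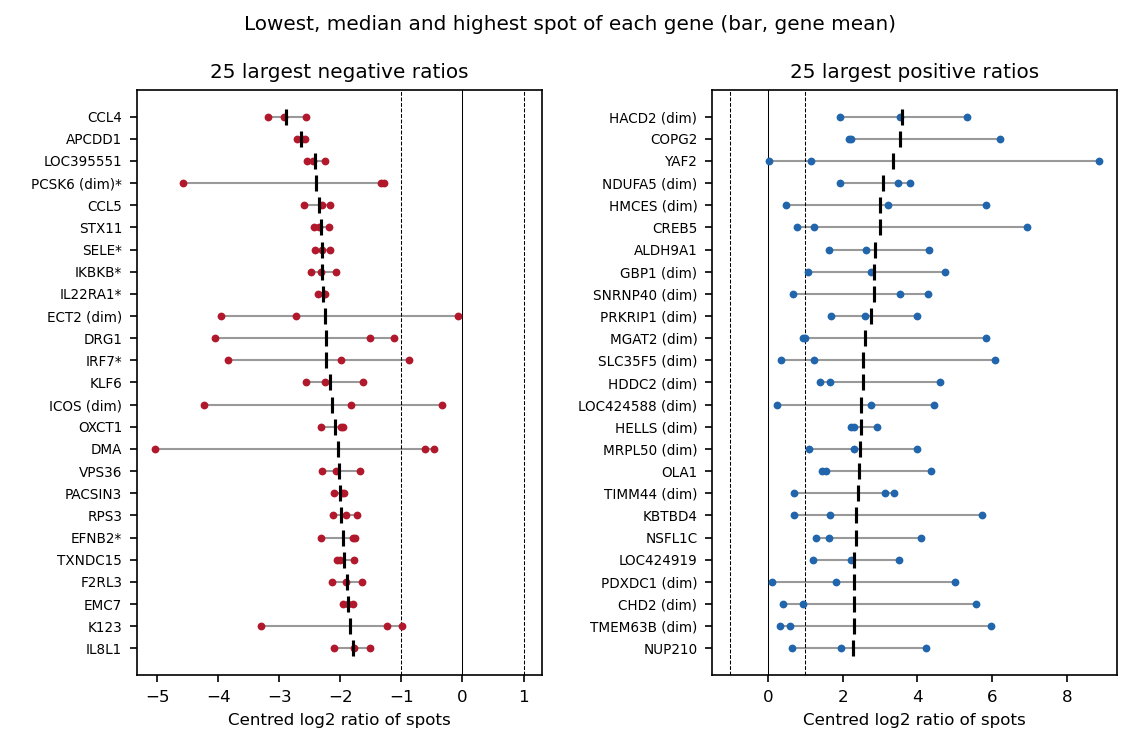
Lowest, median and highest spot of the 25 genes with the largest negative (left) and positive (right) centred log2 ratios among genes with at least 3 spots of 1 sign; black bars are gene means, dashed lines mark 2-fold, and a star marks genes in the end stretch. Spots of CCL4, APCDD1, LOC395551, STX11 and IL22RA1 lie close together, while most positive genes have 1 spot far from the others.

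Interferon-related genes were split, with 5 positive and 3 negative of 24 and a median of 0.09. On the positive side PARP9, a partner of interferon signalling, gave 1.20, 1.44 and 1.18, the tightest of them. GBP1, a guanylate-binding protein that coats vacuoles, gave 1.06, 4.73 and 2.75. The sensors IFIH1, for double-stranded RNA, and CGAS, for DNA, had 1.49 ± 1.63 and 1.61 ± 0.96. GBP1, IFIH1 and CGAS are dim. IRF8, a factor of macrophage and dendritic cell identity, had 0.59, 0.73 and 3.05. On the negative side GBP4L, a further guanylate-binding protein, gave -1.36 and -1.19, and IRF7, a factor that induces interferons, gave -1.99, -0.88 and -3.84 in the end stretch. IRF1, an interferon gamma target, had -0.82 ± 0.22 over 6 spots, all below 0, and IFIT5 gave -0.53, -0.41 and -0.45.

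Antigen presentation genes leaned to the negative side, with 4 negative and 1 positive of 15 and a median of -0.28. That median was 0.21 with no centring and -0.34 with the trend removed. The median brightness percentile of the list was 82.3, and the brightest bin of all genes had a median of -0.28. BF2, the dominant class I molecule of the chicken, had 3 clones at -1.04, -1.12 and -0.90. TAP2, a subunit of the transporter that feeds peptides to it, had -1.23, -0.38 and -1.60. DMA, which loads class II molecules, had -0.46, -0.61 and -5.03, so its place past 2-fold rested on 1 spot. ICOS, a dim T cell costimulator, had -1.82, -4.23 and -0.33. CD74, the class II invariant chain, gave 0.96, 0.80 and 0.31, and CD274, the inhibitory ligand PD-L1, had 4 clones at 0.49, 1.09, 1.74 and 2.03. The values of BF2 and CD274 thus lay on opposite sides of 0 in every clone. With no centring BF2 had -0.53 and TAP2 -0.57, both within 2-fold. BLB1, a class II beta chain, had 1 clone at -2.70 ± 0.13 and 4 clones between -0.62 and 0.59.

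Macrophage markers had a median of 0.48, with 3 positive and 1 negative of 21 genes and 15 above 0. P2RY6, a receptor for extracellular UDP, gave 0.90, 1.47 and 2.70, and FCER1G, the shared signalling chain of Fc receptors, gave 0.67, 1.40 and 1.03. C1QC, a subunit of complement C1q, gave 1.32, 2.67 and 0.23. Its partner subunits C1QA and C1QB had 0.63 ± 1.30 and 0.27 ± 0.31, within 2-fold. LGALS3, a galectin of macrophages, had 0.94 ± 0.40 over 9 spots, all above 0, and TREM2, a lipid receptor, had 0.99 ± 0.39. MARCO, a scavenger receptor for bacteria, was the negative member at -1.20, -0.99 and -0.85, and CD200R1A, an inhibitory receptor, gave -0.89, -0.73 and -0.65.

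Lysosomal genes had a median of 0.40, and 19 of 29 were above 0, but only PPT1 and CREG1 lay past 2-fold. PPT1, which removes fatty acids from proteins, gave 2.55, 1.65 and 2.02, while CREG1, a lysosomal glycoprotein, had -1.11 and -1.47 in its 2 clones. PSAP, the precursor of sphingolipid activators, had 4 clones between 0.47 and 0.60, and LGMN, the asparagine endopeptidase, had 4 clones between 0.35 and 0.62. CTSD, an aspartic protease, gave 0.43, 1.11 and 1.17, and CTSB, a cysteine protease, gave 0.68, 0.28 and 0.77. Every spot of PSAP, LGMN, CTSD and CTSB was above 0. Opposite to them lay LAPTM4A, a membrane protein of late endosomes, with -0.69, -0.51 and -0.60, and GLA, alpha-galactosidase, with -0.51, -0.48 and -0.72. Of 31 genes of the proton pump and endosome traffic 1 was negative, SNX5, a retromer sorting nexin, with -1.54, -1.30 and -1.24. ATP6V0D2, a proton pump subunit, had 3.95 at 1 spot, and -0.19 and -0.25 at the others.

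**Figure D4:**
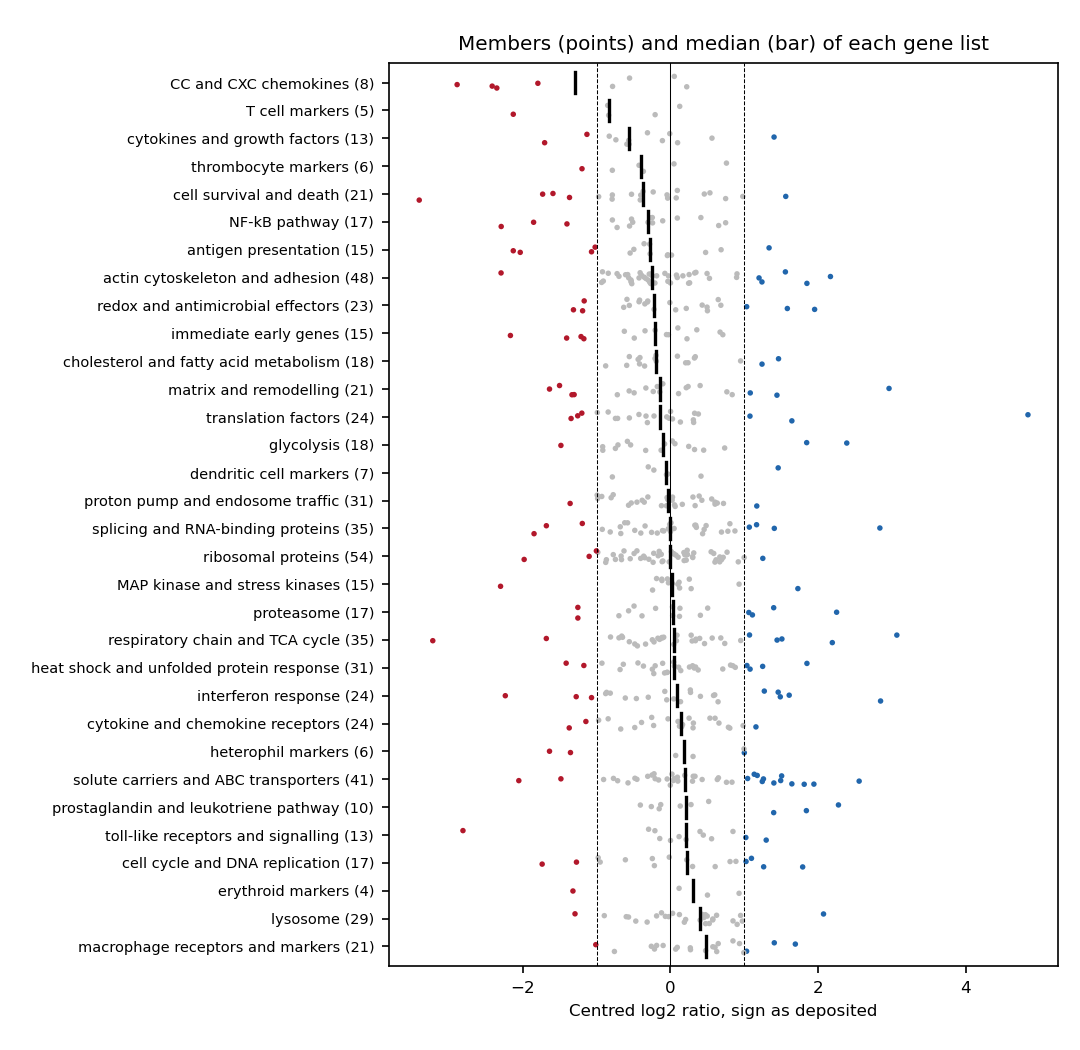
Centred log2 ratio (horizontal axis) of the members of each gene list with at least 3 genes read, ordered by median (black bar), with the number of genes read in brackets; red and blue points lie past 2-fold, marked by dashed lines. Chemokines have the lowest median, -1.29, and macrophage receptors and markers the highest, 0.48.

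Redox and antimicrobial genes had 3 members on each side of 23. GCLM, the modifier subunit of glutamate-cysteine ligase, which makes the precursor of glutathione, gave -1.28, -1.18 and -1.05, TXN, thioredoxin, gave -1.24, -1.05 and -1.27, and NCF4, a subunit of the NADPH oxidase, gave -1.38, -1.38 and -1.18. Every spot of these genes lay past 2-fold, and none was dim. With no centring all of them were within 2-fold, GCLM at -0.67, TXN at -0.70 and NCF4 at -0.82, and with the trend removed they had -0.76, -0.82 and -1.05. GCLC, the catalytic partner of GCLM, had 1.03 at 1 dim spot. PRDX3, a mitochondrial peroxiredoxin, gave 1.97, 1.06 and 1.72 and is dim. NOS2, the inducible nitric oxide synthase, had 2 clones, 1 at 2.15 ± 0.02 and the other at 1.75 ± 2.66, with spots from 0.08 to 4.82. ACOD1, which makes the antimicrobial metabolite itaconate, had 4 clones between -0.14 and 0.26.

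Glycolysis genes had 2 positive and 1 negative of 18 and a median of -0.10, which was 0.39 with no centring. GAPDH had -0.94 and -0.90 in its 2 clones, PFKFB3, which makes the activator of phosphofructokinase, gave -1.12, -0.87 and -0.76, and PGAM1, phosphoglycerate mutase, gave -0.69, -0.56 and -0.50. These enzymes stayed within 2-fold with all spots below 0, and their means were -0.42, -0.42 and -0.09 with no centring. SLC16A1, a lactate and pyruvate carrier, had -1.71 and -1.26. The positive members were MPI, dim, with 1.93 and 2.85, and HK1, a hexokinase with 7.29 at 1 spot and -1.11 and -0.64 at the others, whose median of spots was -0.64.

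Genes of the respiratory chain and the tricarboxylic acid cycle had 5 positive and 2 negative of 35, with a median of 0.05. ATP5I, a subunit of ATP synthase, was the tightest at 1.45, 1.41 and 1.48. NDUFA5, a subunit of complex I, gave 1.92, 3.79 and 3.49 and is dim. COX6C, of complex IV, gave 1.09, 4.31 and 1.17, SDHD, an anchor of complex II, had 1.51 ± 0.95 over 6 spots, and IDH3A, of the NAD-dependent isocitrate dehydrogenase, gave 0.93, 1.11 and 1.17 and is dim. IDH2, the NADP-dependent mitochondrial isocitrate dehydrogenase, gave -1.99, -1.64 and -1.41. COX4I1 rested on 2 spots, -1.84 and -4.60. Ratios of IDH2 and IDH3A thus lay on opposite sides of 0 with no overlap of spots.

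Among 10 prostaglandin and leukotriene genes 3 were positive. ALOX5AP, which presents arachidonic acid to 5-lipoxygenase, had 1.84 ± 1.21, MGST1, a microsomal glutathione transferase, 1.40 ± 0.86, and PLA2G15, a lysosomal phospholipase, 1.05 and 3.50. ALOX5AP and PLA2G15 are dim. PTGS2, the inducible cyclooxygenase, had -2.09, 0.30 and 0.57, with no shared sign. Of 18 genes of cholesterol and fatty acid metabolism 2 were positive, ACADS at 1.46, dim, and ELOVL1, a fatty acid elongase, at 0.79, 0.23 and 2.71.

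Matrix and remodelling genes had 4 negative and 3 positive of 21. SERPINB2, an inhibitor of urokinase, had 4 clones at -0.87, -1.65, -1.30 and -1.52. TIMP3, an inhibitor of metalloproteinases, gave -1.42, -1.31 and -1.19. MMP9, the gelatinase B of macrophages and heterophils, had 2 clones that differed, -0.99 ± 0.23 and -2.29 ± 0.10. MMP15 had -1.63 and -1.37 and is dim and in the end stretch. On the positive side TFPI2, a protease inhibitor, gave 1.22, 1.39 and 1.71, MMP1 had 1.08, and TIMP4 had 2.96 at 1 spot, all dim. The heterophil list shared MMP9 and added S100A12, a calcium-binding alarmin, with -1.48, -1.37 and -1.21, and the defensin AvBD1, dim, with 0.82 and 1.18. Its other members lay above 0 and within 2-fold: CATH1, dim, at 0.996, CSF3R at 0.31 and LYZ at 0.07. Of the 6 heterophil markers 4 were thus above 0, with a median of 0.19.

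Actin and adhesion genes had 5 positive and 1 negative of 48, and 30 were below 0. The list median of -0.26 was 0.24 with no centring and 0.057 with the trend removed. The list is bright, with a median brightness percentile of 86.8, and the brightest bin of all genes had a median of -0.28. SELE, E-selectin, best known from endothelium, gave -2.42, -2.30 and -2.17 and is in the end stretch. ITGA4, the alpha chain of the VLA-4 integrin, gave 1.56, 1.78 and 3.17, and ANXA5, a phosphatidylserine-binding annexin, gave 1.47, 1.15 and 2.05. EVL, an actin regulator, had 1.20 ± 0.71, ARPC3 had 1.85 ± 2.79 over 6 spots, and WIPF1, dim, had 1.24. Within 2-fold, ACTB had -0.53 ± 0.16, MYL12A, a myosin light chain, gave -1.0, -0.90 and -0.90, and EZR, ezrin, had -0.84 ± 0.32. With no centring these means were -0.04, -0.44 and -0.35. The bright members ARPC1A and CD44 had 0.35 and 0.25.

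In the survival and death list 4 genes were negative and 1 positive of 21. SQSTM1, the autophagy receptor p62, had -1.27 ± 0.12 and -1.47 ± 0.18 in its 2 clones. TNFRSF6B, a decoy receptor, gave -1.37, -1.51 and -2.32 and is in the end stretch, as is CASP9, at -1.59 and dim. CASP1, inflammatory caspase, had 1 dim spot at -3.40. PDCD4, a translation inhibitor, gave 0.73, 2.42 and 1.54. Of the MAP kinase list, MAPK14, the p38 alpha kinase, had -1.83 and -2.78 and is dim and in the end stretch, and MAPKAPK2, its substrate kinase, had a positive mean of 1.73 set by 1 of 9 spots, at 14.79, while its median was -0.27.

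Ribosomal proteins were centred, with a median of -0.00 and 27 of 54 genes on each side of 0, and 3 were negative and 1 positive. RPS3, a small subunit protein, stood apart from the others at -1.85 ± 0.12 and -2.12 in its 2 clones. RPL23 had -1.10 ± 0.38, RPL7A -1.0 ± 0.66 and RPLP1 1.25 ± 2.05, which came from 1 of its clones. Of 24 translation factors 3 lay past 2-fold on each side. EIF3G, a subunit of initiation factor 3, gave -1.50, -1.24 and -1.04, PABPC1, the poly(A)-binding protein, had clones at -1.44, -0.87 and -1.29, and EIF5, which activates the initiator tRNA complex, had -0.67 and -2.02. The positive ones had little behind them: EIF5B rested on 1 spot at 4.84, and ABCE1 and ETF1, at 1.65 and 1.08, are dim. EEF1A1, the main elongation factor, lay just inside the threshold with -1.08, -1.07 and -0.82.

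The proteasome list had 4 positive and 2 negative of 17 genes, on both sides of its core and cap. PSMA5 had -1.21 and -1.29, PSMD7 had -1.25 ± 0.51, PSMB7 had 1.11 ± 0.77, PSMF1, a proteasome inhibitor, had 1.13 and 0.99, PSMA6 had 0.66, 3.16 and 0.37, and PSMD1 had 2.25 ± 2.13. Heat shock and unfolded protein genes had 4 positive and 2 negative of 31. DNAJB6, a cochaperone, gave 1.79, 0.91 and 1.05, HSPA2, a 70 kDa chaperone, had 1.08 ± 0.35 over 6 spots, CCT5 had 1.04 ± 0.79, and HSP90AB1, dim, had 2.44 and 1.26. ATF4 is 1 of the negative members, and the other, HSPE1, had -5.83 at 1 spot and 0.42 and 1.17 at the others.

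Cell cycle and replication genes had 4 positive and 2 negative of 17. PCNA, the sliding clamp of DNA replication, gave 1.11, 1.75 and 2.52, each past 2-fold. CCND3, a D-type cyclin, had 1.26 ± 0.66 over 6 spots, AURKB, a mitotic kinase, had 1.10 ± 0.68, and CCND1, dim, had 1.02. CCNC and CCNB3, the negative members, are in the end stretch, and the spots of CCNC did not share a sign. HELLS, a chromatin remodeller of dividing cells that was on no list, gave 2.93, 2.32 and 2.22 and is dim.

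Splicing and RNA-binding genes had 4 positive and 3 negative of 35. YBX3, a cold shock protein, had -1.68 ± 0.78 over 6 spots, SNRPB2 gave -0.64, -1.38 and -1.57, and HNRNPU had 0.15 and -3.84. SNRPD3, a core protein of spliceosomal particles, gave 1.07, 2.07 and 1.09, SNRNP40, dim, had 2.84, HNRNPD 1.17 ± 2.36 and ELAVL1, a stabiliser of AU-rich transcripts, 1.07. Solute carriers and ABC transporters had 12 positive (29.3%) and 2 negative of 41, against 14.8% positive over all genes. Of the 41 genes 14 were dim, and their median brightness percentile was 45.85. In the dimmest bin of all genes 31.1% were positive and in the next 16.2%, and the part of brightness in this list was not tested. SLC43A3, dim, gave 1.24, 1.10 and 1.19, SLC38A2, a glutamine carrier, 1.18, 0.96 and 1.00, SLCO2B1, an organic anion carrier, 0.65, 1.69 and 3.48, and SLC25A3, the mitochondrial phosphate carrier, 0.67, 1.03 and 2.82. The rest of the positive members were ABCE1, SLC35F5 at 2.56, SLC37A2 at 1.81, SLC25A4 at 1.49, ABCC13 at 1.40 and SLC35B2 at 1.14, all dim, and SLC26A5 at 1.26 and SLC7A6 at 1.24. This list was filled by the start of the gene symbol, which brought in ABCE1, counted among the translation factors as well. The negative members were SLC16A1, above, and SLC31A1, a copper carrier with 1 dim spot.

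Of the genes past 2-fold 389 of 520 were on no list, as were 1621 of all 2252 genes. On the negative side the 9 largest on no list, outside the end stretch and with every spot past 2-fold, had SDs of 0.07 to 1.19. APCDD1, a membrane inhibitor of Wnt signalling, gave -2.63, -2.57 and -2.72. STX11, a syntaxin needed for granule release by killer lymphocytes in humans, gave -2.43, -2.35 and -2.18. OXCT1, which lets cells burn ketone bodies, gave -2.32, -1.96 and -1.99, VPS36, an ESCRT-II subunit, -2.08, -2.30 and -1.68, and PACSIN3, a membrane-bending endocytic protein, -2.10, -1.97 and -1.94. TXNDC15 gave -2.05, -2.0 and -1.78, F2RL3, a thrombin receptor, -2.13, -1.91 and -1.64, and EMC7, of the ER membrane complex, -1.96, -1.87 and -1.80. DRG1, a GTP-binding protein, had spots from -4.05 to -1.12. IL22RA1, a chain of the IL-22 receptor, and EFNB2, an ephrin, had -2.29 ± 0.06 and -1.95 ± 0.31, both in the end stretch, and -1.46 and -1.12 with that stretch centred on its own median.

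Other genes with every spot below -1, picked after their values were seen, were PTPRJ, a receptor phosphatase, at -1.65 ± 0.17, IGSF6, an immunoglobulin-like receptor of myeloid cells, at -1.58 ± 0.18, TACC3, a spindle protein, at -1.74 ± 0.13, H3F3B, a replacement histone H3, at -1.48 ± 0.14, and AGFG1, at -1.56 ± 0.10. CYR61, a matrix protein of the early growth response, had -1.22 ± 0.13, NDRG1, a stress-response gene, -1.33 ± 0.15, and TPT1, an abundant translationally controlled protein, -1.15 ± 0.13. In all, 36 of the 57 negative genes with every spot past 2-fold had an SD under 0.2, against 9 of the 56 positive ones.

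On the positive side, where genes were not chosen by having every spot past 2-fold, the largest ratios were wide. HACD2, an enzyme of very long fatty acid synthesis, gave 3.54, 5.32 and 1.94 and is dim, COPG2, a COPI coat subunit, gave 6.20, 2.21 and 2.17, and ALDH9A1, an aldehyde dehydrogenase, gave 1.64, 2.63 and 4.32. Of the 25 largest positive genes 16 are dim, against 3 of the 25 largest negative ones. YAF2 and CREB5 had means of 3.35 and 2.99 that each rested on 1 spot, at 8.85 and 6.93. The tight positive genes, picked after their values were seen, were smaller: WDSUB1 gave 2.07, 1.97 and 1.97, COG6, a Golgi tethering subunit, 2.08, 2.21 and 1.96, ROMO1, a mitochondrial inner membrane protein, 1.01, 1.21 and 1.18, and MFGE8, a bridge for the uptake of apoptotic cells, 1.77, 2.33 and 2.09. COG6 and MFGE8 are dim, while WDSUB1 and ROMO1 are not. HINT2, a mitochondrial phosphoramidase, gave 2.60, 1.52 and 1.81, and DBI, which binds acyl-CoA, gave 3.75, 1.53 and 1.20.

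Genes spotted as several clones gave a further measure of error. Of 566 such genes, 204 had clones more than 1 apart, and the median range was 0.72. Of 79 such genes past 2-fold, 31 had each clone past it, KLF6, IL8L1, TNFAIP3, SQSTM1 and CREG1 among them. In contrast, 10 genes had clones past 2-fold in both signs, and 158 genes within 2-fold had a clone past it. CLN8, an ER membrane protein gene, had clones at -2.27 and -1.15.

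Genes past 2-fold on the 1 h arrays were looked up on this array. The E. coli 1 h array and the LPS 1 h array share no RNA sample with it, by the labels, though they may share unstimulated RNA with each other. The E. coli 1 h array had 332 genes past 2-fold on the positive side (14.8%) and the LPS 1 h array 166 on the negative side (7.38%), and 63 genes were in both sets, which served only to choose them. On the present array 14 of these 63 were negative, 11 positive and 38 within 2-fold, with a median of -0.35. Leaving out dim genes, 11 of 44 were negative, 4 positive and 29 within, and 34 of 44 were below 0. Over all genes read, 1732 of 2252 lay within 2-fold, 8.3% were negative and 14.8% positive. Among genes that are not dim and were also read at E. coli 1 h, 8.41% were negative and 9.35% positive here. The 4 positive genes of 44 are thus near the share over such genes. The median of the 44 was -0.46, against -0.05 over all genes that are not dim and -0.28 in the brightest bin. The part of brightness in these counts was not tested. On the negative side the chemokines LOC395551, CCL5 and IL8L1 were the farthest out of the 44, and on the positive side NOS2 and TNIP3.

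Large ratios at 1 h came with both small and large ratios here. CCL20, with 6.0 at E. coli 1 h, had -0.55 ± 0.14 here, and CCL5, with 3.22, had -2.35 ± 0.22. GCLM, with 4.03, had -1.17 ± 0.11, NFKBIZ, with 2.86, had -0.30 ± 0.26, and PLK3, a stress kinase with 2.91, had -0.02 ± 0.12. CD83, an activation marker of antigen-presenting cells, with 2.00, had -0.04 ± 0.63, and G0S2, a lipase inhibitor, with 1.69, had -0.57 ± 0.30. The 4 positive genes were NOS2, TNIP3, PDGFA and CARHSP1, an RNA-binding protein with 1.76, 0.91 and 1.05. KLF6 was not among the 63, since it had -0.79 at E. coli 1 h and -0.45 on the LPS 1 h array. APCDD1, STX11 and PACSIN3 had -0.37, 0.10 and -0.34 at E. coli 1 h, each within 2-fold.

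**Figure D5:**
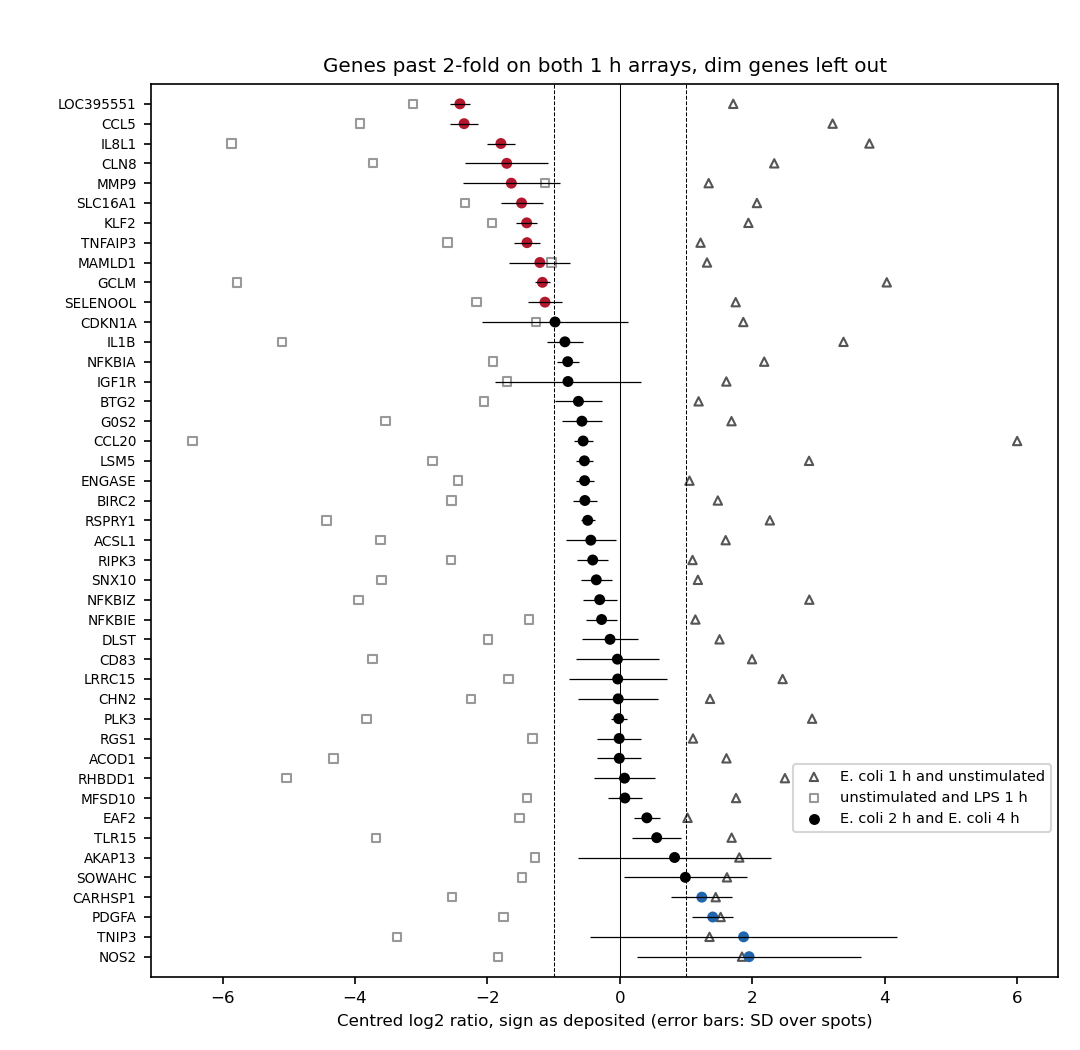
Centred log2 ratios of the 44 genes, none of them dim, that lay past 2-fold on the positive side at E. coli 1 h (triangles) and on the negative side of the LPS 1 h array (squares), ordered by their ratio on the present array (filled points, with the SD over spots). Of these, 11 lie past 2-fold on the negative side (red), 4 on the positive side (blue) and 29 between the dashed lines.

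As whole lists, the 332 positive genes of the E. coli 1 h array and the 333 positive genes here had 137 in common, which is 41.3% of the former and 41.1% of the latter, against 14.8% positive among all genes read. Among genes that are not dim, 31 of 121 were shared (25.6%), against 9.35%. Negative here were 23 of the 332 (6.93%), against 8.22%, and without dim genes 14 of the 121 (11.6%), against 8.41%. The ratio moved with brightness on this array, and its part in the overlap was tested no further than by leaving out dim genes. Of the 166 negative genes of the LPS 1 h array, 26 were negative here, 15.7% of those and 13.98% of the negative genes here, against 8.27% among all genes read. Without dim genes 22 of 136 were negative here (16.2%), against 8.46%. On the LPS 1 h array the stimulated RNA was in channel 2, and its positive genes overlapped with the positive side here too. Of these 84 genes 28 were positive here (33.3%), against 14.8%, and without dim genes 7 of 18 (38.9%), against 9.35%. Of 34 negative genes of the E. coli 1 h array 9 were negative here (26.5%), against 8.22%. Without dim genes these were 2 of 16 (12.5%), against 8.41%. The end stretch had negative medians on both arrays, -0.48 at E. coli 1 h and -0.79 here. Of its named clones 16.5% were negative at E. coli 1 h, against 1.26% of other named clones, and 41.9% were negative here, against 8.46%. The part of the end stretch in this overlap was not tested.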

How the data were processed

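Total RNA of chicken macrophages was hybridised to 6 spotted cDNA arrays, per the labels, each the only one of its group. The authors deposited log2 ratios for 5 arrays and linear intensity values for LPS 2 h. Of base, numerator, dyes, background correction and normalisation, none is given in the sources used here, and base 2 was assumed. The deposited ratios had the array median subtracted, and were averaged over the 3 spots of a clone, whose identifiers differ by 5120, and then over the clones of a gene. A gene counted as past 2-fold at a log2 ratio of at least 1 in size. The deposited intensity of LPS 2 h served only to rank genes by brightness. With 1 array, precision is limited by the number of arrays.

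The platform's gene table of 2007 listed 9069 spots, 9066 with 1 gene and 3 with several, which were not named, and did not list 5649. RefSeq's table of GRCg7b held 2228 of the 2255 gene identifiers, and names and gene order alone were taken from it. The 34 gene lists were matched by symbol or synonym, and 24 synonym matches that pointed to other genes were left out after they were seen.

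Members, lists and thresholds were chosen with earlier results of these data known. Genes named were the 25 largest on each side among genes past 2-fold with at least 3 spots of 1 sign, list members past 2-fold, up to 4 members of largest ratio per list, and members of families that show their range. Other genes, among them those with every spot past 2-fold, the clone examples and those compared with the 1 h arrays, were picked after their values were seen. Alternatives covered centring, the trend with brightness (lowess over 0.3 of the genes), spot medians, dim genes, spot number, clones, log base and shared sign. Centring each set of spots, leaving out the end stretch and centring it on its own median were chosen after seeing the data. The steps were tested on simulated data with spot noise pooled over all clones. These had no spread or trend that depends on brightness and no offset of the end stretch, so the run cannot show how the steps handle those. Values were computed with pandas 2.3.3 and numpy 2.4.6 under Python 3.11.15, the lowess curve with statsmodels 0.14.6, and figures were drawn with matplotlib 3.10.9.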

Additional observations from a re-analysis of the deposited data

How the results depend on the processing

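No paired analysis was possible because each group is 1 array, and no replicate could be left out. The count of genes past 2-fold, 520, was 301 without dim genes and 870 with natural logarithms. The 333 positive genes became 646 with no centring, 158 without dim genes and 500 with natural logarithms, and the 187 negative genes became 70 with no centring and 370 with natural logarithms. With no centring every ratio is 0.49 higher, and list medians turned positive for NF-kB (0.19), immediate early (0.29), antigen presentation (0.21), thrombocyte (0.10), cholesterol and fatty acid (0.30), redox (0.27), glycolysis (0.39), translation factor (0.36), actin (0.24), matrix (0.35) and survival genes (0.12). With the trend with brightness removed, medians changed sign for erythroid (-0.053), cholesterol and fatty acid (0.13), redox (0.085), glycolysis (0.092), actin (0.057) and matrix genes (0.010), and without dim genes for heterophil markers (-0.64). The median of spots turned ATP6V0D2 (-0.19), HK1 (-0.64) and HSPE1 (0.42), and the brightest clone turned IFNGR1 (-0.40), MAPKAPK2 (-0.86) and RPLP1 (-0.22). The cause of these turns was not tested, beyond the shift that the centring adds by construction. Of 166 genes followed, 133 were still past 2-fold with no centring, 126 with the trend removed, 145 with spot medians and 112 without dim genes. With no centring a positive gene cannot drop out, so all genes lost there were negative ones. Among them were SQSTM1 (-0.87), SNX5 (-0.86), S100A12 (-0.86), SERPINB2 (-0.84), CA2 (-0.83), TIMP3 (-0.81) and CREG1 (-0.80). PABPC1 (-0.71), PDGFB (-0.70) and MARCO (-0.52) were lost there as well. Centring each set of spots left 162, and centring the end stretch on its own median left 155. Of the 333 positive genes 175 were dim.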

Other observations

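Clones that have no gene name here made up 1878 of the clones read, and 377 of them were at least 2-fold positive and 210 negative. Every spot lay past 4-fold on the negative side for 18 of these clones and on the positive side for 3, against 14 and 4 of 3019 named clones. The lowest of them with an SD under 0.5 gave -3.57, -3.34 and -3.33, a mean of -3.41 ± 0.14, which is beyond the mean of CCL4, and its brightness percentile on the LPS 2 h array was 98.9. No gene was assigned to it.

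The medians of the deposited ratios before centring differed between the 3 sets of spots, at 0.37, 0.48 and 0.65. Pearson's r between sets, across clones of 1 slide and thus a description with shared RNA and hybridisation, was 0.47, 0.41 and 0.39.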
